A study of Rattus norvegicus with 9 samples.

Results

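The 10 genes of alpha and beta tubulin described here, Tuba1a, Tuba1b, Tuba1c, Tuba4a, Tubb2a, Tubb2b, Tubb3, Tubb4b, Tubb5, and Tubb6, were chosen by name from the 35362 genes of the deposited table, and all 10 were found. A count was present in every sample for 9 of them, Tubb2b being at 0 in 1 SASCs sample. They are 4 alpha and 6 beta tubulins. RNA was sequenced from adipose-derived mesenchymal stem cells (ASCs), the adherent stromal cells grown out of digested fat, taken from male Sprague Dawley rats aged 6 weeks. SASCs came from subcutaneous fat of the groin, PASCs from perirenal fat around the kidney, and EASCs from epididymal fat by the testis. All cells were at passage 3, were grown in medium with fetal bovine serum, and carried no treatment, so the depot of origin was the only labelled difference between the groups. Each group held 3 samples, numbered 1 to 3, and the methods give 6 replicates per group in wells of culture plates. The methods name 6 rats, and every sample title begins with the same prefix sd1, whose meaning is not given. The sources do not say if different rats gave the 3 samples within a group, and p-values therefore measure the spread between these samples, which may be technical.

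Alpha and beta tubulin pair into the dimers from which microtubules, the hollow filaments of the cytoskeleton, are built. Microtubules form the mitotic spindle, carry intracellular traffic, and help set the shape of cells that spread on a dish. Mammals hold several genes for each chain, called isotypes, whose proteins are nearly the same along most of their length and differ mainly in the acidic tail, where enzymes add or remove tyrosine and glutamate. New chains are folded by prefoldin and the CCT chaperonin and assembled into dimers by the tubulin folding cofactors, and cells are known to lower tubulin mRNA when free dimers are in excess.

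Total counts ranged from 17591916 to 30299032 per sample, and ribosomal RNA genes took 10.4% to 15.5% of them in SASCs, 22.4% to 32.9% in PASCs, with 15.9% to 40.3% in EASCs, so that this share was higher in every visceral sample than in SASCs. The counts were scaled by TMM, and a count of 3 then stood at 0.104 to 0.159 CPM (counts per 1000000 of the scaled library). All 10 tubulin genes were among the 14770 genes kept by edgeR for testing, although Tubb2b, with 0 to 28 counts per sample, was kept through EASCs alone. Levels of different genes are compared here only per length, as RPKM, the CPM divided by the length of the gene in kilobases. A gene is called a DEG where edgeR's quasi-likelihood test gave an adjusted p-value under 0.05 and the change was more than 2-fold, and a gene is said to pass the test where only the former held. The 13 listed markers of ASCs, all of which were tested, summed to 30608 to 37004 CPM in each sample, mostly the collagens Col1a1 and Col3a1. Within this list Cd34 was low (3.29 CPM on average in SASCs, 0.581 in PASCs, and 3.90 in EASCs) and a DEG below SASCs in PASCs. Dcn, Lum, and Pdgfra were DEGs lower in both EASCs and PASCs than in SASCs, and Eng (3.41-fold) and Itgb1 (2.82-fold) were DEGs higher in EASCs.

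Tubulin transcripts were higher in the cells of both visceral depots than in SASCs. Because Tubb2b could be tested only through the group in which it was highest, counts are given for the other 9 genes first, a choice made after the data were seen. In EASCs 7 of these 9 were DEGs above SASCs and 0 were below, where 13.6% of all tested genes were DEGs above and 14.2% below, and their median log2 fold change was 1.51 against 0.01 for all genes tested. In PASCs 6 of the 9 were DEGs above SASCs and 0 were below, where 12.0% and 14.9% of all genes were, and the median was 1.38 against −0.01. With Tubb2b included the numbers were 8 and 6 of 10 and the medians 1.59 and 1.33. With ribosomal RNA genes removed before the fit, the 10 genes gave 8 and 6 DEGs with medians of 1.60 and 1.33. With the fold change left aside, 8 of the 9 genes passed the test above SASCs in EASCs, all but Tuba4a, where 35.5% of all genes did (34.3% passed below), and 9 passed in PASCs, where 34.6% did (34.6% below). All samples of EASCs lay above all of SASCs for 8 of the 9 genes and below for 0, where 36.3% and 35.8% of all genes did, and those of PASCs lay above for 9 and below for 0, where 35.7% and 36.0% did. Counts scaled by their totals without TMM gave 6 and 5 tubulin DEGs above SASCs in EASCs and PASCs and 0 below, while over all genes the DEGs above and below SASCs went from 2002 and 2103 to 1349 and 3426 in EASCs and from 1779 and 2200 to 1262 and 3169 in PASCs. Both comparisons share the same 3 SASCs samples. In RNA of whole cultures, fewer cells of a kind and less RNA per cell cannot be told apart.

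**Figure D1:**
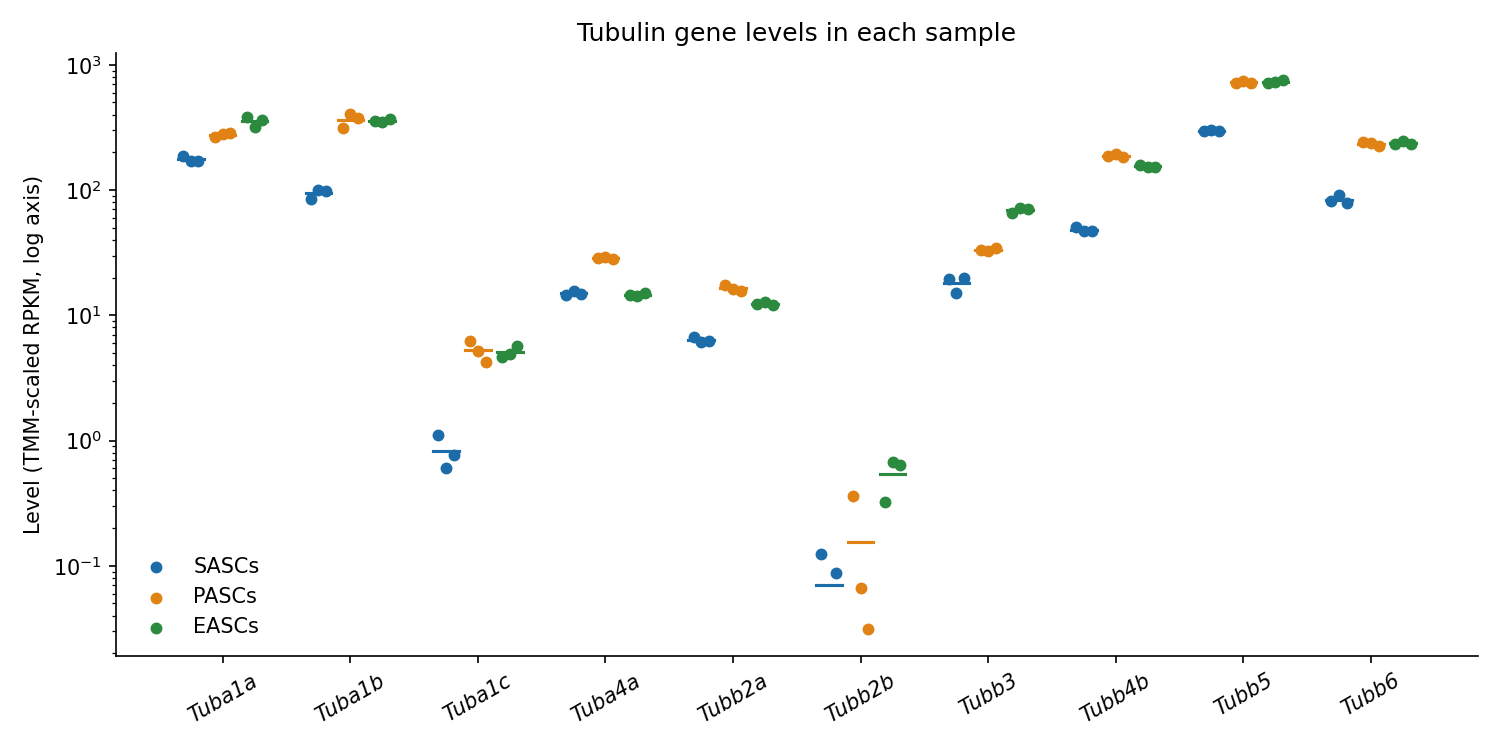
Levels of the 10 tubulin genes in each of the 9 samples, as TMM-scaled RPKM on a log axis. Points are samples, short lines are group means (n = 3), and 1 SASCs sample with 0 counts of Tubb2b is not drawn. Tubb5 was the most abundant in all 3 groups, and the samples of SASCs lie below those of EASCs and PASCs for 8 of the genes, the others being Tuba4a and Tubb2b.

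Among the alpha chains, Tuba1b, which is expressed in most cell types, rose more than Tuba1a in both visceral depots. Its level was 85.1, 100.4, and 97.9 RPKM in SASCs 1 to 3, 311, 408, and 377 in PASCs, with 356, 352, and 366 in EASCs. All samples of both visceral groups stood far above SASCs, while PASCs and EASCs overlapped. Tuba1b was 3.79-fold higher in EASCs (log2 fold change 1.92 ± 0.077 SE, adjusted p = 2.65e-18) and 3.87-fold higher in PASCs (1.95 ± 0.077, adjusted p = 1.97e-18).

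Tuba1a, the alpha chain best known from developing neurons, was the most abundant alpha tubulin in SASCs. It stood at 189, 170, and 171 RPKM in SASCs, 267, 279, and 284 in PASCs, with 384, 319, and 361 in EASCs, so that the 3 groups did not overlap. It rose 2.01-fold in EASCs (log2 fold change 1.01 ± 0.063, adjusted p = 7.42e-14), just past the threshold for a DEG. Without EASCs replicate 1 or 3, or SASCs replicate 2 or 3, its log2 fold change was 0.95, 1.00, 0.98, and 0.98, under that threshold, with the adjusted p-value still under 0.05, and the same was seen with DESeq2 (0.99), with a filter on a mean of 1 CPM (0.99), and with total counts (0.60). In PASCs it rose by 0.65 ± 0.063 on the log2 scale (1.57-fold, adjusted p = 7.04e-10), which passed the test without reaching a fold change of 2 and no longer passed with total counts (adjusted p = 0.0735).

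Tuba1c, another alpha gene of the same chromosomal cluster, was far less abundant and changed by the largest fold of the genes with steady counts. Its levels were 1.11, 0.608, and 0.763 RPKM in SASCs, 6.23, 5.23, and 4.28 in PASCs, with 4.66, 4.91, and 5.65 in EASCs. PASCs and EASCs overlapped, and each lay wholly above SASCs. The rise was 5.99-fold in EASCs (log2 fold change 2.58 ± 0.20, adjusted p = 9.7e-12) and 6.24-fold in PASCs (2.64 ± 0.20, adjusted p = 5.59e-12).

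Tuba4a, the alpha chain that is made without the tyrosine at its tail, behaved differently in the 2 visceral depots. It was at 14.5, 15.6, and 14.7 RPKM in SASCs, 28.9, 29.1, and 28.1 in PASCs, with 14.5, 14.1, and 15.2 in EASCs. PASCs stood alone at about 2 times the level of the other groups, whose samples overlapped. The change in PASCs was 1.92-fold (log2 fold change 0.94 ± 0.068, adjusted p = 1.27e-12), which passed the test but not the fold threshold. In EASCs the log2 fold change was −0.03 ± 0.070 (adjusted p = 0.688). When the counts were scaled by their totals without TMM, which shifted the median of all genes to −0.39 in EASCs against SASCs, the value for Tuba4a was −0.43 and passed the test (adjusted p = 0.0173).

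Among the beta chains, Tubb5, the class I isotype found in nearly all cells, was the most abundant tubulin of every sample. It stood at 295, 304, and 297 RPKM in SASCs, 717, 746, and 715 in PASCs, with 710, 722, and 750 in EASCs. The visceral groups overlapped and lay above SASCs by 2.43-fold in both EASCs (log2 fold change 1.28 ± 0.055, adjusted p = 1.28e-17) and PASCs (1.28 ± 0.055, adjusted p = 1.4e-17). With total counts the log2 fold changes were 0.89 and 0.96, so that Tubb5 was then no DEG in either.

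Tubb6, the class V isotype that is widespread outside the nervous system, followed the same pattern. Its levels were 81.9, 90.8, and 78.3 RPKM in SASCs, 242, 237, and 224 in PASCs, with 235, 247, and 232 in EASCs. Both visceral groups lay above SASCs with no overlap between those and SASCs, at 2.85-fold in EASCs (log2 fold change 1.51 ± 0.060, adjusted p = 2.32e-18) and 2.80-fold in PASCs (1.48 ± 0.060, adjusted p = 3.44e-18).

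Tubb4b, a class IV isotype of dividing and ciliated cells alike, rose by the largest fold of the beta genes in PASCs. It went from 50.4, 46.8, and 47.3 RPKM in SASCs to 188, 192, and 183 in PASCs and 159, 152, and 151 in EASCs. The 3 groups did not overlap, and PASCs were the highest. The fold changes over SASCs were 3.90 in PASCs (log2 1.96 ± 0.055, adjusted p = 1.02e-21) and 3.20 in EASCs (log2 1.68 ± 0.055, adjusted p = 2.81e-20). Tubb4b overlaps Fam166a on the other strand, which had 45 to 312 counts, and the use of strand in the counting is not stated.

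Tubb3, the class III isotype that is widely used as a marker of neurons, was the member in which EASCs stood out. It was at 19.3, 15.0, and 20.0 RPKM in SASCs, 33.2, 32.6, and 34.2 in PASCs, with 65.7, 71.6, and 70.4 in EASCs. The groups formed 3 steps without overlap. Against SASCs it rose 3.82-fold in EASCs (log2 fold change 1.93 ± 0.076, adjusted p = 1.78e-18) and 1.84-fold in PASCs (0.88 ± 0.077, adjusted p = 7.86e-11), the latter short of a DEG.

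Tubb2a, the more abundant of the neighbouring class II genes, was at 6.65, 6.10, and 6.21 RPKM in SASCs, 17.5, 16.1, and 15.7 in PASCs, with 12.4, 12.7, and 12.0 in EASCs. PASCs were highest and SASCs lowest with no overlap. It was a DEG in PASCs (2.60-fold, log2 fold change 1.38 ± 0.076, adjusted p = 3.96e-15), and in EASCs it passed the test at 1.95-fold (0.97 ± 0.077, adjusted p = 1.09e-11), reaching a DEG with upper quartile scaling (1.003) and without SASCs replicate 1 (1.006). Its partner Tubb2b was close to the limit of counting, with 6, 0, and 3 counts in SASCs, 16, 3, and 1 in PASCs, with 13, 28, and 24 in EASCs. Only EASCs held more than a few counts in each sample, and 1 PASCs sample overlapped them. The fitted log2 fold change was 2.85 ± 0.71 in EASCs (adjusted p = 9.13e-04), while PASCs stood at 1.12 ± 0.84 (adjusted p = 0.237), the latter −0.47 without PASCs replicate 1, and the size of such a fold rests on a handful of reads.

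**Figure D2:**
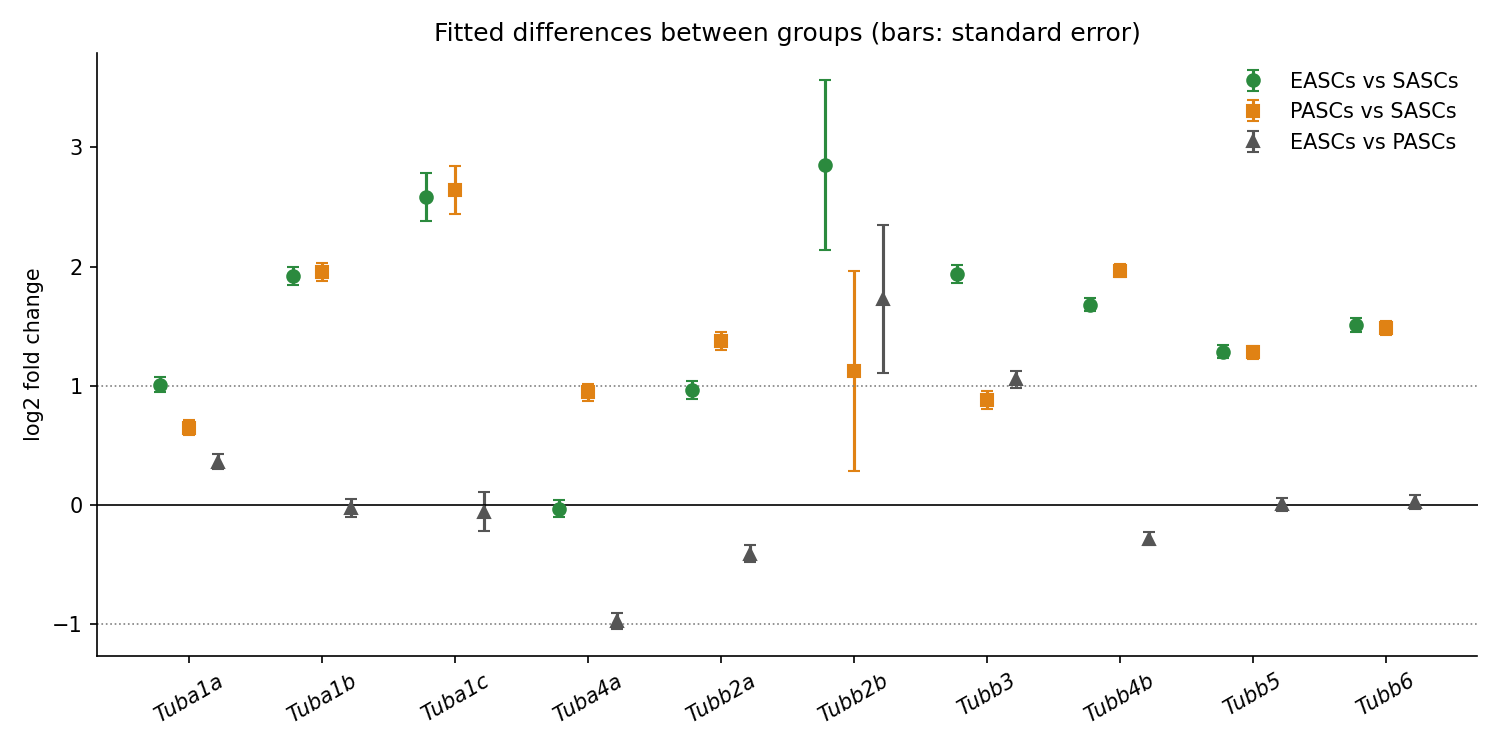
Fitted log2 fold changes of the 10 tubulin genes for EASCs against SASCs, PASCs against SASCs, and EASCs against PASCs, with standard errors as bars. Dotted lines mark a fold change of 2 in either direction. Most values against SASCs lie above 1, and Tuba4a and Tubb3 lie farthest apart between the visceral depots among genes with steady counts.

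The 2 visceral depots were compared directly to see which isotypes differed between EASCs and PASCs. Of the 9 genes other than Tubb2b, 1 was a DEG higher in EASCs and 0 were lower, where 5.19% and 2.20% of all genes were, and their median log2 fold change was −0.029 against −0.01 for all genes. Tubb3 was 2.08-fold higher in EASCs (log2 fold change 1.05 ± 0.072, adjusted p = 3.34e-12), and Tubb2b, tested through EASCs alone, was a further DEG (1.73 ± 0.62, adjusted p = 0.0355). The call of Tubb2b was lost without EASCs replicate 2 or 3 or PASCs replicate 2 or 3 (adjusted p = 0.135, 0.108, 0.167, and 0.140), and without PASCs replicate 1 its log2 fold change was 3.32. Regardless of fold, 2 of the 9 genes passed the test upward and 3 downward, where 16.1% and 14.5% of all genes did. The samples of EASCs lay wholly above those of PASCs for 2 of the 9 genes and wholly below for 3, where 21.1% and 20.1% of all genes did. Tuba1a was higher in EASCs by 0.36 ± 0.063 on the log2 scale (adjusted p = 5.24e-05). Tuba4a, Tubb2a, and Tubb4b were lower in EASCs by log2 fold changes of −0.97 ± 0.068 (adjusted p = 4.35e-12), −0.41 ± 0.072 (adjusted p = 4.99e-05), and −0.29 ± 0.052 (adjusted p = 9.36e-05). With total counts in place of TMM, Tubb3 was no longer a DEG (log2 fold change 0.98) and Tuba4a became one (−1.05), and Tuba1a (adjusted p = 0.304) and Tubb4b (adjusted p = 0.140) no longer passed. For Tuba1b, Tuba1c, Tubb5, and Tubb6 the log2 fold changes were −0.03 ± 0.073, −0.06 ± 0.16, 0.00 ± 0.054, and 0.02 ± 0.058, with adjusted p-values from 0.803 to 0.977.

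The order of the isotypes by level per length was nearly the same in all groups. In each of them Tubb5 led and Tubb6, Tubb4b, Tubb3, Tuba4a, Tubb2a, Tuba1c, and Tubb2b closed the order in this sequence. The places after Tubb5 changed hands, with Tuba1a above Tuba1b in all samples of SASCs (177 ± 10.5 against 94.5 ± 8.20 RPKM, SD, n = 3) and Tuba1b above Tuba1a in all samples of PASCs (365 ± 49.5 against 277 ± 9.09, SD, n = 3). In EASCs the 2 genes stood at 355 ± 32.6 for Tuba1a and 358 ± 7.22 for Tuba1b (SD, n = 3), and their samples overlapped. The samples also overlapped in SASCs between Tuba1b and Tubb6 and between Tubb3 and Tuba4a. All other neighbours in the order were apart in every sample.

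The share of each isotype in the summed level of its family does not depend on the scaling of the library. Tuba1a made up 65.2%, 59.3%, and 60.2% of alpha tubulin in SASCs, 43.5%, 38.7%, and 41.0% in PASCs, with 50.6%, 46.3%, and 48.3% in EASCs. Tuba1b filled most of the difference, with 33.0% ± 3.09 in SASCs, 53.9% ± 2.94 in PASCs, and 48.9% ± 2.04 in EASCs (SD, n = 3). The share of Tuba4a was 5.22% ± 0.222 in SASCs, 4.27% ± 0.387 in PASCs, and 2.00% ± 0.0722 in EASCs (SD, n = 3), with no overlap between any of the groups. Tuba1c stayed at or below 1.02% in every sample.

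Among beta tubulins the mixture was steadier. Tubb5 gave 65.7% ± 0.570 in SASCs, 60.6% ± 0.646 in PASCs, and 60.5% ± 0.988 in EASCs (SD, n = 3), so that the share of the leading isotype was lower in every visceral sample while its level was higher. Tubb4b took 10.6% ± 0.506, 15.7% ± 0.0388, and 12.8% ± 0.560 in the same order (SD, n = 3), without overlap. Tubb3 took 3.99% ± 0.647, 2.79% ± 0.130, and 5.76% ± 0.189 (SD, n = 3), lowest in PASCs and highest in EASCs, again without overlap. The share of Tubb6 was 18.4% ± 1.13, 19.5% ± 0.570, and 19.8% ± 0.714 (SD, n = 3), and the groups overlapped. Shares of single genes can be moved by reads that fit more than 1 tubulin gene.

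**Figure D3:**
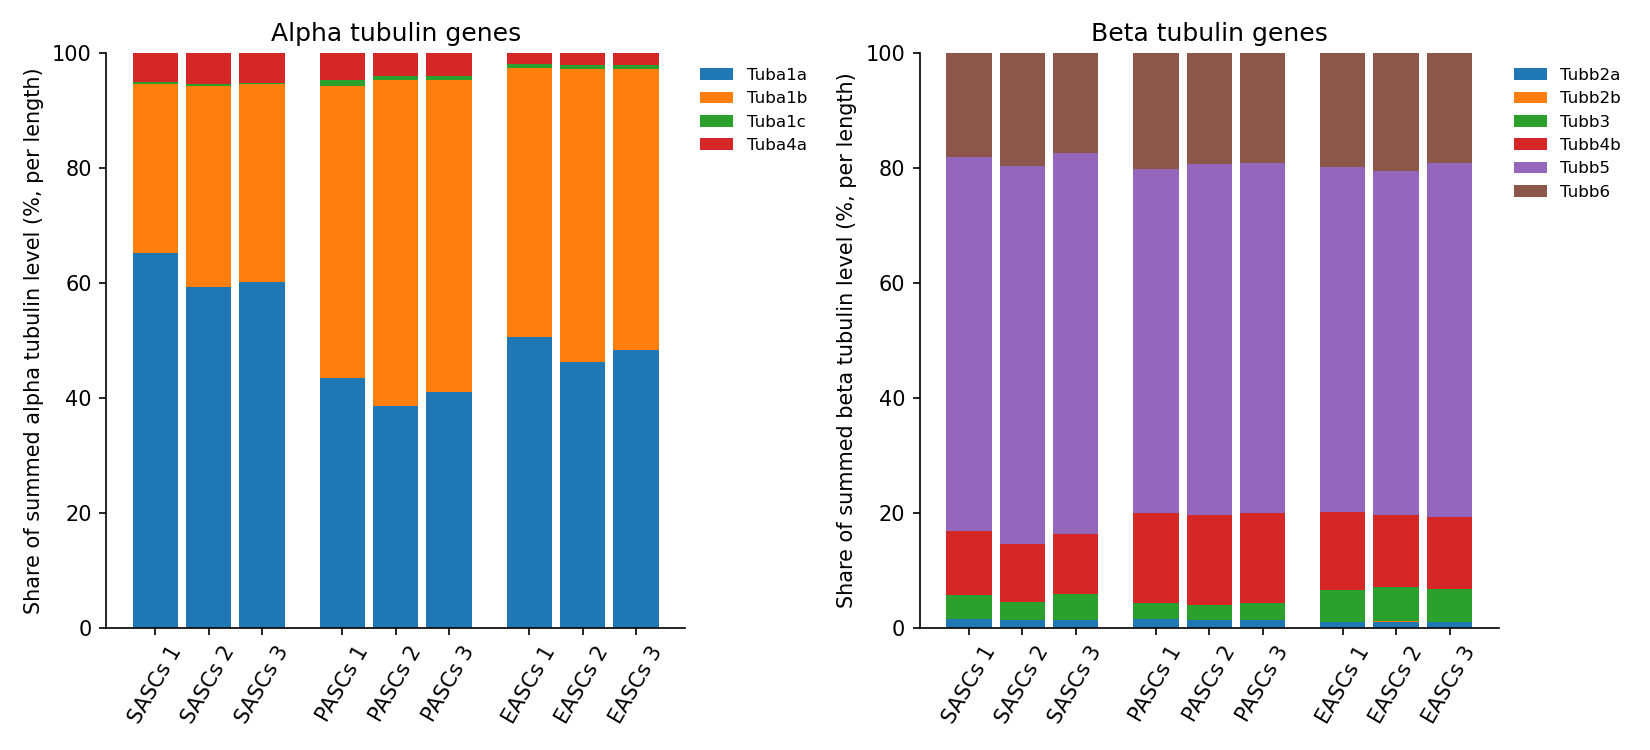
Share of each isotype in the summed alpha tubulin level (left) and beta tubulin level (right) of each sample, in percent of RPKM. Stacked bars are samples; Tuba1a falls from 61.5% of alpha tubulin on average in SASCs to 41.1% in PASCs and 48.4% in EASCs, while Tubb5 remains the main beta isotype throughout.

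Summed over the isotypes, the alpha chains stood at 287 ± 2.38 RPKM in SASCs, 676 ± 56.3 in PASCs, and 732 ± 36.8 in EASCs (SD, n = 3). The beta chains stood at 455 ± 7.07, 1198 ± 26.4, and 1202 ± 17.8 RPKM in the same order (SD, n = 3). The sums were thus 2.36 and 2.55 times those of SASCs for alpha and 2.63 and 2.64 times for beta tubulin, in PASCs and EASCs respectively, and the visceral groups overlapped each other in both. The ratio of summed alpha to beta level was 0.630 ± 0.0107 in SASCs, 0.564 ± 0.0454 in PASCs, and 0.609 ± 0.0351 in EASCs (SD, n = 3). It was lower in all PASCs samples than in SASCs, and EASCs overlapped both. Together the 10 genes took 0.162% to 0.175% of the counts in SASCs and 0.273% to 0.383% in the other samples.

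Genes of cell division and of the contractile cytoskeleton also rose in the visceral depots, in a different order. The 16 genes of a mitotic list, led by Mki67, Top2a, and Cenpf, were all DEGs above SASCs in EASCs and PASCs, where 13.6% and 12.0% of all genes were, and all 16 were lower in EASCs than in PASCs at an adjusted p-value under 0.05, where 14.5% were. Their summed level was 128 to 134 CPM in SASCs, 1014 to 1026 in PASCs, with 605 to 621 in EASCs. The 12 genes of a contractile list, led by Flna, Tagln, and Cald1, which build and bind actin filaments, were likewise all DEGs above SASCs in both, and all 12 passed the test as higher in EASCs than in PASCs, where 16.1% of all genes did. They summed to 2331 to 2424 CPM in SASCs, 11473 to 11824 in PASCs, with 18414 to 18631 in EASCs. Tubb4b, Tuba4a, and Tubb2a were highest in PASCs, as the mitotic list was, and Tubb3 and Tuba1a were highest in EASCs, as the contractile list was. For Tuba1b, Tuba1c, Tubb5, and Tubb6 the samples of PASCs and EASCs overlapped. The 2 lists ran in opposite directions, so any gene that differs between PASCs and EASCs goes with 1 of them. The part of either list in the tubulin levels was not tested.

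**Figure D4:**
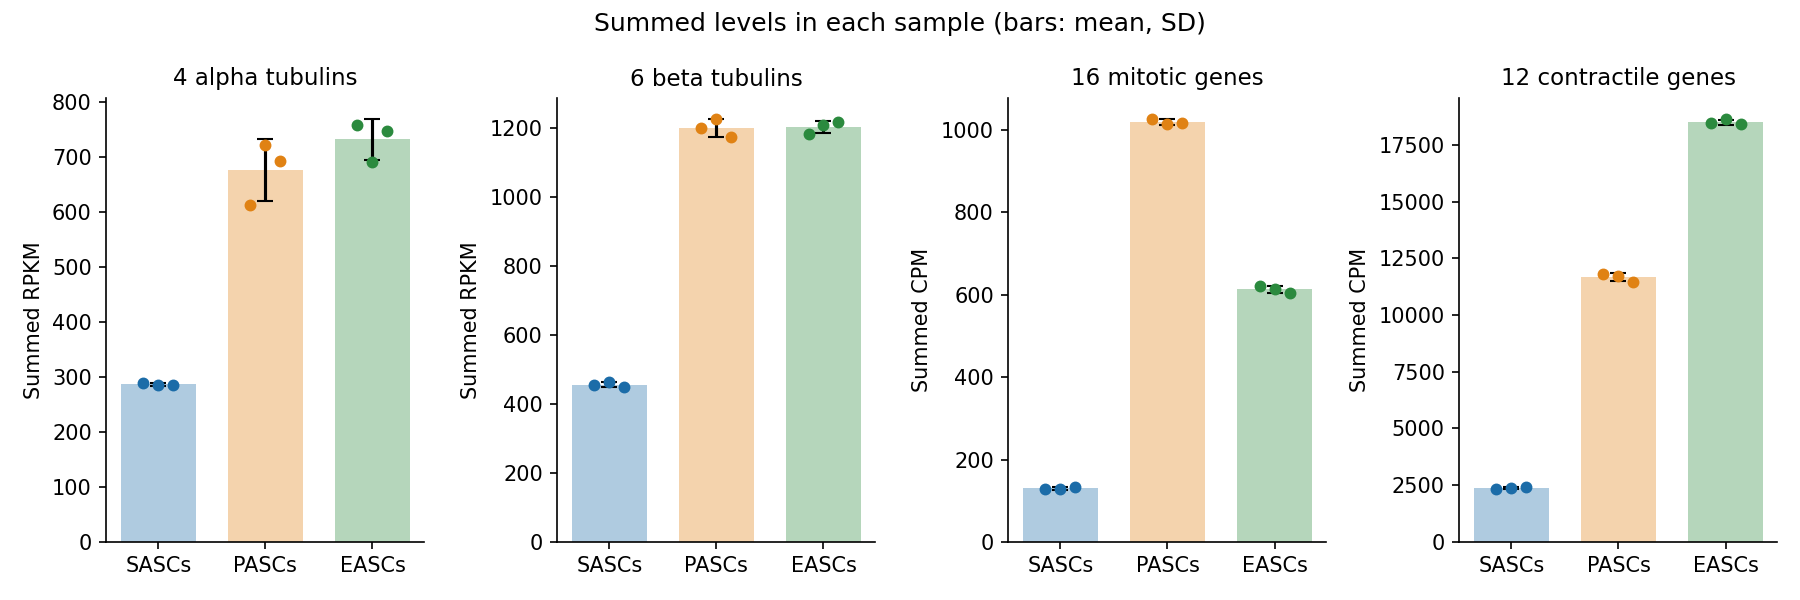
Summed level of the 4 alpha and 6 beta tubulin genes (RPKM) and of 16 mitotic and 12 contractile genes (CPM) in each sample. Bars are means with the SD (n = 3) and points are samples. The tubulin sums of PASCs and EASCs overlap at more than 2 times the level of SASCs, while the mitotic sum is highest in PASCs and the contractile sum in EASCs.

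Markers of other cells that a culture from fat could hold also differed between the groups. For neurons, which express Tubb3, the summed level of 13 markers was 3.91 to 4.67 CPM in SASCs, 4.15 to 4.40 in PASCs, with 11.1 to 11.7 in EASCs. Most of the difference in EASCs came from Stmn2, whose product binds free tubulin dimers and which went from 3.33 ± 0.182 CPM in SASCs and 2.36 ± 0.0857 in PASCs to 9.65 ± 0.157 in EASCs (SD, n = 3). Besides Stmn2, only Nefh and Ina of the 13 had enough counts to be tested, and they had them through the visceral samples. The neurofilament gene Nefh had 2 counts in each SASCs sample, 10 to 30 in PASCs, with 9 to 18 in EASCs, and Ina, of the same family, had 2, 7 to 11, and 14 to 26. The other 10 markers had 0 to 9 counts in every sample, near the limit of counting, and those at 0 in a whole group were Dcx in SASCs, Nefm in PASCs, and Rbfox3, Snap25, Syp, and Elavl3 in EASCs. Of 7 leukocyte markers found in the table, 6 were DEGs above SASCs in EASCs and 4 in PASCs. Of all genes, 13.6% and 12.0% were. These DEGs include Aif1, which was kept for testing through the visceral samples. Its reads numbered 5 to 10 per SASCs sample, against 15 to 40 per PASCs sample and 35 to 54 per EASCs sample. The DEGs were not counted without it. The 7 markers summed to 48.8 to 53.5 CPM in SASCs, 119 to 124 in PASCs, with 172 to 184 in EASCs. The 8 mesothelial markers, among them Wt1 and Msln, summed to 18.6 to 20.2, 95.1 to 101.7, and 129.9 to 141.8 CPM in the same order. Of 7 endothelial markers the sums were 54.9 to 56.2, 13.9 to 17.0, and 37.9 to 40.8 CPM. In EASCs 1 of the 7 was a DEG above SASCs and 1 below, where 13.6% and 14.2% of all genes were. In PASCs 1 was above and 6 below, where 12.0% and 14.9% of all genes were. The 1 above was Tek in both, at 2.55 CPM on average in SASCs, 8.30 in PASCs, and 8.08 in EASCs. The sums of 7 Schwann cell markers were 169.9 to 175.8, 181 to 188, and 149.6 to 157.0 CPM, mostly Pmp22. Those of 6 adipocyte markers were 101.3 to 109.3, 20.3 to 21.0, and 9.61 to 10.7 CPM. None of the leukocyte or endothelial markers was at 0 in a whole group. The part of such cells in the tubulin differences was not tested.

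Tubulin genes have many processed copies in mammalian genomes, and reads that fit several of them can be split by the counting. The deposited table placed Tuba1b (chr7:140614746-140617721, minus strand), Tuba1a (chr7:140637287-140640953, minus strand), and Tuba1c (chr7:140716113-140723717, plus strand) side by side, with Tuba1a 19.6 kb from Tuba1b and 75.2 kb from Tuba1c. Tubb2b (chr17:31441640-31444687) and Tubb2a (chr17:31493120-31498651), both on the plus strand, lay 48.4 kb apart. The other 5 genes lay on chromosomes of their own, Tuba4a at chr9:82415599-82419918, Tubb3 at chr19:56220759-56229813, Tubb4b at chr3:2441587-2444361, Tubb5 at chr20:3422448-3426420, and Tubb6 at chr18:63130542-63140181. These positions are those of the deposited table, for which the methods name rn6 while the submitters' processing notes list rn5.

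With Tuba1a, Tuba1b, and Tuba1c added together before the fit, their sum was higher by 1.40 ± 0.062 on the log2 scale in EASCs and 1.25 ± 0.062 in PASCs, and it differed by 0.15 ± 0.061 between EASCs and PASCs (adjusted p = 0.0651). The sum of Tubb2a and Tubb2b differed by 1.00 ± 0.078 in EASCs and 1.38 ± 0.077 in PASCs. Beyond the members the table held 28 rows described as a tubulin. Of these, 18 were on no list used here, 11 of the 18 being annotated pseudogenes and 11 having 0 counts in all samples. Together the 18 copies had 1141 counts against 614352 in the 10 genes, or 0.186%. The most abundant was LOC100909441, described as an alpha-1C-like chain, with 944 counts against 1235 in Tuba1c. Its log2 fold changes of 2.56 ± 0.29 in EASCs and 2.67 ± 0.29 in PASCs lay next to those of Tuba1c, and reads that fit both could have been counted for either. The only other unlisted copy with enough counts to be tested, LOC102548328, described as an alpha-1B-like chain, went the other way on few reads, with 15, 25, and 17 counts in SASCs, 4, 10, and 10 in PASCs, with 4, 4, and 7 in EASCs.

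Of 10 other listed members of the tubulin superfamily, 5 were tested. Gamma tubulin Tubg1, which nucleates microtubules, stood at 17.7 ± 2.48 CPM in SASCs, 36.0 ± 1.82 in PASCs, and 32.2 ± 2.33 in EASCs (SD, n = 3), and was a DEG in PASCs (log2 fold change 1.04, adjusted p = 8.77e-11) and above SASCs in EASCs at 0.87 (adjusted p = 2.81e-09). The centriolar Tube1 was a DEG above SASCs at 1.17 in EASCs (adjusted p = 4.97e-06) and likewise at 1.66 in PASCs (adjusted p = 8.66e-09), and Tubd1 passed the test at 0.46 (adjusted p = 0.0412) and 0.70 (adjusted p = 0.00269). Tubg2 gave 0.00 and 0.34 (adjusted p = 0.991 and 0.382). Tuba8, at 0.678 CPM or less on average, was lower in EASCs (−1.46, adjusted p = 0.025) and gave −1.08 in PASCs (adjusted p = 0.0794).

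All 14 genes of the CCT chaperonin and prefoldin were higher in both EASCs and PASCs than in SASCs at an adjusted p-value under 0.05, where 35.5% and 34.6% of all genes were, by medians of 0.57 and 0.59 on the log2 scale, and 0 of 14 passed that threshold between EASCs and PASCs in edgeR, 3 having an unadjusted p-value under 0.05 and 1 passing the adjusted one in DESeq2. Only Tcp1, the subunit CCT1, was a DEG, and in PASCs alone (log2 fold change 1.08, against 0.95 in EASCs), or 7.14% of the list where 12.0% of all genes were, at 65.0 ± 1.14 CPM in SASCs, 137 ± 3.41 in PASCs, and 125 ± 7.12 in EASCs (SD, n = 3). The folding cofactors, which hand alpha and beta chains to each other, moved in both directions. Tbca, which holds beta chains, was higher by 0.37 in EASCs and 0.52 in PASCs, and Tbcd, which brings the dimer together, by 0.45 and 0.37. Tbce, which holds alpha chains, and Tbcel, a related protein that destabilises tubulin, were lower, with log2 fold changes of −0.63 and −0.72 in EASCs and −0.55 and −0.98 in PASCs. Tbcc was lower in EASCs (−0.66, adjusted p = 3.77e-07) and gave 0.04 in PASCs (adjusted p = 0.701), and EASCs also lay below PASCs (−0.70, adjusted p = 6.57e-07). Arl2, a small GTPase that works with the cofactors, was lower in PASCs (log2 fold change −0.31, adjusted p = 0.0399), and its value in EASCs was −0.16 (adjusted p = 0.276). Ttc5, which recognises new tubulin chains when tubulin mRNA is degraded, gave 0.23 (adjusted p = 0.102) and 0.07 (adjusted p = 0.613). None of the 7 tested cofactors was a DEG against SASCs, where 13.6% of all genes were above and 14.2% below in EASCs and 12.0% and 14.9% in PASCs, and the eighth, Tbcb, was listed at no more than 10 counts per sample.

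**Figure D5:**
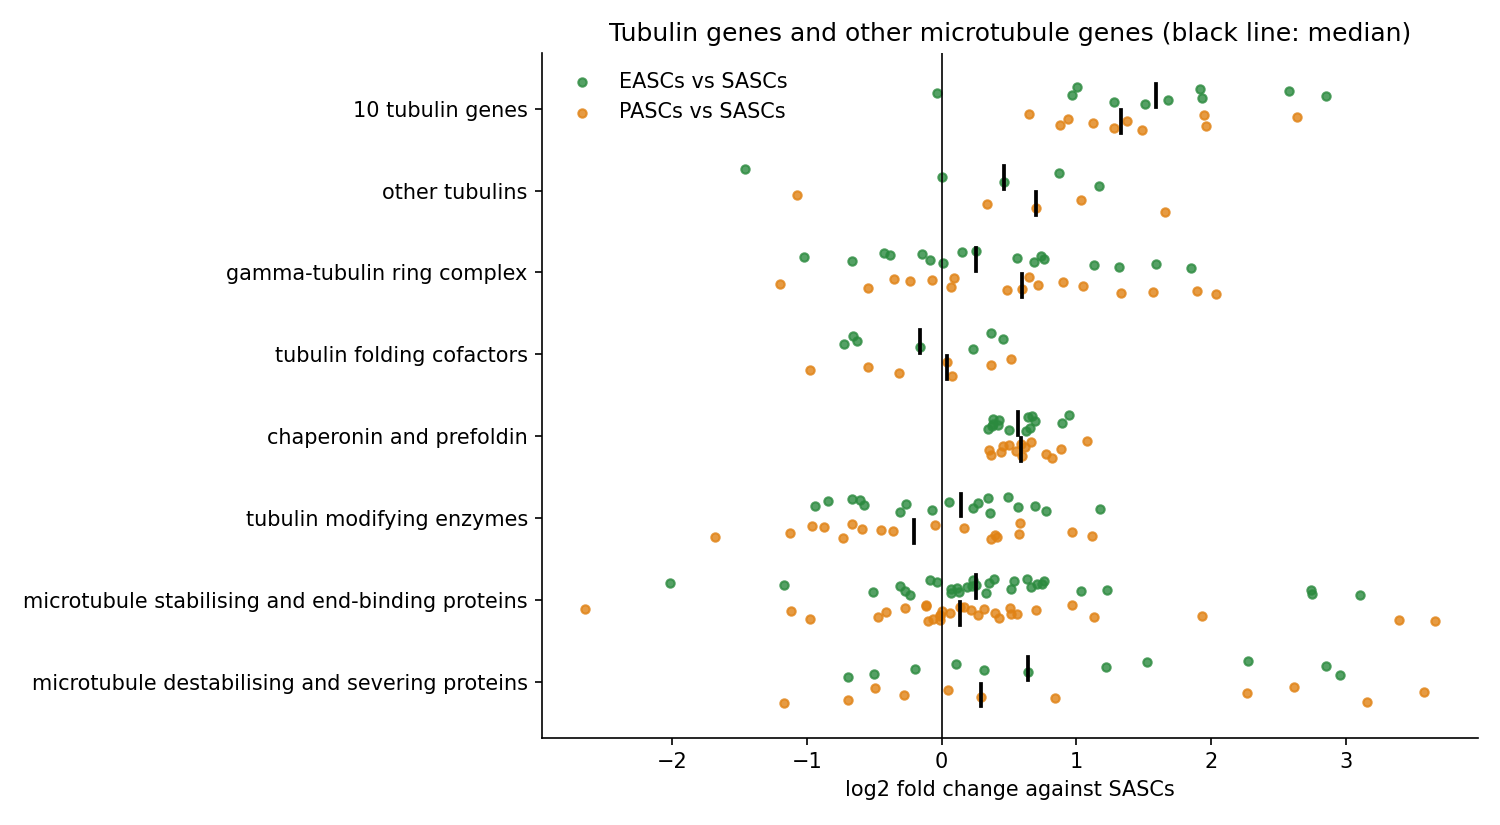
Log2 fold changes of the 10 tubulin genes and of the tested genes of 7 lists of the tubulin and microtubule machinery, for EASCs and PASCs against SASCs. Points are genes and black lines medians; the 10 tubulin genes have medians of 1.59 and 1.33, the 14 chaperonin and prefoldin genes lie together at medians of 0.57 and 0.59, and the other lists spread to both sides of 0.

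Genes that start, modify, bind, and take apart microtubules held DEGs in both directions. Of 17 tested genes of the gamma tubulin ring complex and the augmin complex, which start new microtubules, 4 were DEGs above SASCs in EASCs and 5 in PASCs, and 1 was below in each, or 23.5% and 29.4% above and 5.88% below, where 13.6% and 12.0% of all genes were above and 14.2% and 14.9% below. The augmin subunits Haus8 (1.85 and 2.04), Haus4 (1.59 and 1.89), Haus5 (1.13 and 1.57), and Haus7 (1.32 and 1.33) rose in EASCs and PASCs, and Cdk5rap2 (1.05) was the further DEG of PASCs. The small ring subunit Mzt2b fell by 1.02 on the log2 scale in EASCs and by 1.20 in PASCs. Of 18 tested enzymes that modify tubulin, Tpgs2, a subunit of the tubulin polyglutamylase, was the only DEG above SASCs in either (1.18 and 1.12), or 5.56% of the list, where 13.6% and 12.0% of all genes were. Agbl2, which removes tail residues, was a DEG lower in PASCs than in SASCs and EASCs, from 7 to 16 counts in SASCs, 2 to 5 in PASCs, with 10 to 23 in EASCs, so that its fold rests on a handful of reads. Vash1, a tubulin detyrosinating enzyme, differed by 1.01 between EASCs and PASCs, with EASCs the higher.

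Of 31 tested genes of stabilising and end-binding proteins, 5 were DEGs above SASCs in EASCs (16.1%) and 4 in PASCs (12.9%), close to the 13.6% and 12.0% of all genes, and 2 were below in each (6.45%), where 14.2% and 14.9% of all genes were. The spindle proteins Prc1 (3.11 and 3.66) and Tpx2 (2.75 and 3.39) as well as Mid1 (1.03 and 1.13) rose. Tppp3 and, in EASCs alone, Tppp were called on few reads, Tppp3 with 2 to 3 counts in SASCs, 6 to 11 in PASCs, with 15 to 17 in EASCs, and Tppp with 4 to 15, 8 to 12, and 10 to 30. Tppp3 was kept for testing through the visceral samples, and without it, a choice made after the data were seen, 4 (13.3%) and 3 (10.0%) of 30 genes were DEGs above SASCs. Mapre2, an end-binding protein, fell by 1.17 and 1.11 on the log2 scale, and Map7d3 fell by 2.02 and 2.65. Of 11 tested destabilising and severing proteins, 5 were DEGs above SASCs in EASCs (45.5%) and 0 below, and in PASCs 4 were above (36.4%) and 1 below, against the same shares of all genes. Stmn1, which binds free dimers (2.27 and 2.62), the spindle depolymerases Kif2c (2.85 and 3.58) and Kif18a (1.22 and 2.27), and Fignl1 (2.96 and 3.16) rose in both depots. Stmn2 rose in EASCs (1.53) and was lower in PASCs (−0.50, adjusted p = 0.0121), and Fignl2 was lower in both (−0.70, adjusted p = 0.0375, and −1.17, adjusted p = 0.00144). The median log2 fold changes of the lists were 0.26 and 0.60 for the ring complex, 0.14 and −0.20 for the modifying enzymes, 0.25 and 0.14 for the stabilising proteins, and 0.64 and 0.29 for the destabilising proteins, in EASCs and PASCs, against 0.01 and −0.01 for all genes tested.

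Among 8558 other genes at 10 CPM or more on average, those whose level followed the summed tubulin level most closely across the 9 samples, by Pearson's correlation of log2 values, were Enpp1 (0.999), Myl12a (0.999), Stac2 (0.999), Sertad4 (0.998), and Pak1 (0.998). Their log2 fold changes over SASCs ran from 1.75 (Myl12a) to 4.87 (Stac2) in EASCs and from 1.66 to 4.59 in PASCs. With 3 samples of low and 6 of high tubulin level, these correlations describe the step between SASCs and the other groups.

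The promoters of the 10 genes were read from RefSeq on GRCr8, as the 250 bases before and 50 after each annotated start, and searched on both strands for CCAAT (bound by NF-Y), GGGCGG (bound by Sp1), TATAAA (the TATA box), TTTGAA and TTCGAA (letters of the CHR element of cell cycle genes), GGAATG (bound by TEAD factors), and the CArG box (bound by SRF). CCAAT was found in 8 of the 10, all but Tuba4a and Tubb2a, and in 37.5% of 33469 promoters of the same length. GGGCGG was found in 9 of the 10, all but Tubb2b, and in 33.1% of all. The 250 bases before the start held 52.0% to 80.4% G and C in the members, against a median of 51.2% for all promoters. The part of G and C content in these counts was not tested. TATAAA was found in Tubb2a and Tubb4b (14.2% of all), TTTGAA in Tuba1c and Tubb4b (18.3%), TTCGAA in Tuba1c (1.69%), and GGAATG (14.2%) and the CArG box (1.64%) in 0 of the 10. A match is a description of letters and not a site, and matches of different motifs did not overlap in any of the 10 windows.

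The 250 bases before the start are shown for the isotypes on which the comparisons turn, namely 3 of the genes that rose in both visceral depots (Tuba1b, Tubb4b, and Tubb5), one of those highest in EASCs (Tubb3), and the one that rose in PASCs alone among the tests against SASCs (Tuba4a), each 5′ to 3′ in the direction of transcription. Capitals mark matches to the motifs just named, on either strand. The windows are chr7:131972588-131972837 (minus strand) for Tuba1b, chr3:28438456-28438705 (minus strand) for Tubb4b, chr20:2917327-2917576 (plus strand) for Tubb5, chr19:68365437-68365686 (plus strand) for Tubb3, and chr9:84162585-84162834 (minus strand) for Tuba4a.
Tuba1b: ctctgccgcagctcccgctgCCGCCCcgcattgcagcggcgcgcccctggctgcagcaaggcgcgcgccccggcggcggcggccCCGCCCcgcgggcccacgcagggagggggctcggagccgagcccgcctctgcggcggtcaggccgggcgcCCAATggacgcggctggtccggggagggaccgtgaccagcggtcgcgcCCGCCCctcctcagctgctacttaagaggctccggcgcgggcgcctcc
Tubb4b: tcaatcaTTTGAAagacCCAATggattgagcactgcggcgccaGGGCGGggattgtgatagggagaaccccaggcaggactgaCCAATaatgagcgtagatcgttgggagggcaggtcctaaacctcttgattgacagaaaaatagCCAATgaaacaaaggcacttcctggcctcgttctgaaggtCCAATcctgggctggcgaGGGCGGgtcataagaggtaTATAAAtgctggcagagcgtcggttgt
Tubb5: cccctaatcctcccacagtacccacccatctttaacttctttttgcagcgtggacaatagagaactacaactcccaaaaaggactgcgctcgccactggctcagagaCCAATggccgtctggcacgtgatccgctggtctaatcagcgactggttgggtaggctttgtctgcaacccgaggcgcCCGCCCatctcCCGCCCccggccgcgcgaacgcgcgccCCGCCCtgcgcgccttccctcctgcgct
Tubb3: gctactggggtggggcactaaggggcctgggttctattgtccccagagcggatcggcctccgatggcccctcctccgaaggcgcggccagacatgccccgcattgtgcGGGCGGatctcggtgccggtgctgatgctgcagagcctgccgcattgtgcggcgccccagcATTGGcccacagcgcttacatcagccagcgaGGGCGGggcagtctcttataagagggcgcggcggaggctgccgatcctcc
Tuba4a: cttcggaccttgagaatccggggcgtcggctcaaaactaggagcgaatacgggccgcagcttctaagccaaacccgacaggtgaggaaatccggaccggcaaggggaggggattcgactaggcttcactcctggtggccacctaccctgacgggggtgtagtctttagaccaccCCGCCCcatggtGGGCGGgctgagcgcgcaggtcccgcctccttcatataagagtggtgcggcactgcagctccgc

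Tubb4b held 4 CCAAT motifs, at −233, −167, −104, and −64 from the start, besides 2 GGGCGG, 1 TTTGAA, and a TATAAA at −27. Tuba1b and Tubb5 each held 1 CCAAT and 3 GGGCGG, and Tubb3 held 1 CCAAT and 2 GGGCGG. Tuba4a held 2 GGGCGG and no CCAAT.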

How the data were processed

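RNA of 9 samples, 3 each of SASCs, PASCs, and EASCs at passage 3, was analysed, with groups and replicate numbers taken from the sample labels. The authors trimmed paired-end reads, used TopHat to align them to the rat genome, and deposited a read number for each of 35362 genes, so the deposited values are whole counts without normalization. The counting tool, its use of strand, and its treatment of reads that match several genes are not given in the sources used here. Total counts ran from 17591916 to 30299032 per sample, and the limit of 3 counts (0.104 to 0.159 CPM) covers counting error only.

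Counts were fitted with edgeR 4.0.16 in R 4.3.3 (TMM factors 0.740 to 1.23, filterByExpr, quasi-likelihood test, 1 model of all 9 samples without a block), which tested 14770 genes with Benjamini-Hochberg adjustment over all of them in each comparison. The common biological coefficient of variation was 0.0685. DEGs passed an adjusted p-value of 0.05 and changed by more than 2-fold. RPKM used the gene length of the deposited table. Sums, shares, and medians over genes were described without a test. The code of the fit was also run on simulated counts, and no result given here rests on that run.

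The 10 genes and the lists of related genes were chosen with earlier results of these data known. Beyond the 10 genes, the text names at most 2 rising and 2 falling DEGs of each list at a mean of 5 CPM or more, every tested gene of the other tubulins and folding cofactors, at most 3 most abundant genes of the reference and marker lists, and the 5 genes most alike in level. Dcn, Lum, Pdgfra, Eng, Itgb1, Dcx, Nefm, Rbfox3, Snap25, Syp, Elavl3, Aif1, Tek, Haus5, Haus7, Cd34, Cdk5rap2, Agbl2, Vash1, Tppp, Tppp3, Mid1, Map7d3, Kif18a, Fignl1, Fignl2, Fam166a, LOC100909441, and LOC102548328 were named after their values were seen. The settings tried were total counts without TMM, upper quartile scaling, removal of ribosomal RNA genes, other filters and thresholds, the 2 groups alone, a replicate block, summed copies, DESeq2 1.42.0, and leaving out each replicate in turn. Promoters were those of RefSeq on GRCr8, found for all 10 genes. Protein sequences were not used here, so identity between isotypes was not computed.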

Additional observations from a re-analysis of the deposited data

How the results depend on the processing

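With total counts in place of TMM, the median of all genes shifted to −0.39, −0.33, and −0.08 for EASCs against SASCs, PASCs against SASCs, and EASCs against PASCs, and the median of the 10 tubulin genes went from 1.59, 1.33, and −0.01 to 1.20, 1.00, and −0.084. Under the same setting the log2 ratio of summed alpha tubulin was 0.95 in EASCs and 0.91 in PASCs against SASCs, and that of beta tubulin was 1.01, 1.07, and −0.064 in the order of the 3 comparisons. Tuba1a in PASCs against SASCs then had an adjusted p of 0.0735 in edgeR, while Tuba4a in EASCs (−0.43) had one of 0.0173, and Tubb5 was no longer a DEG in either visceral group. The remaining medians that moved by more than the spread of replicates follow. For EASCs they were 1.63 with upper quartile scaling, 1.40 with copies summed, and 1.497 with a filter on a mean of 1 CPM, which left Tubb2b untested. For PASCs they were 1.28 with copies summed and 1.38 with the 2 groups alone. Leaving out each replicate gave medians of 1.56 to 1.61 for EASCs, 1.31 to 1.46 for PASCs, and −0.028 to 0.028 for EASCs against PASCs.

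The number of tubulin DEGs was 8 for EASCs. With copies summed it was 5, where 7 genes or sums were tested. It was 6 with total counts (Tuba1a and Tubb5 lost) and with the filter on 1 CPM (Tuba1a lost and Tubb2b not tested). DESeq2 gave 7, upper quartile scaling 9 (Tubb2a gained), and a replicate left out 7 to 9. For PASCs it was 6 in every fit that left out a replicate and 5 with total counts (Tubb5 lost). For EASCs against PASCs it was 2, and 6 at any fold. It was 1 with DESeq2 (Tubb2b lost, adjusted p = 0.0541), with the filter on 1 CPM (Tubb2b not tested), and with copies summed (Tubb2b part of a sum). A replicate left out gave 1 to 2, Tubb2b being the gene lost. With total counts it was 2 again, Tubb3 being lost and Tuba4a (−1.05) gained. Leaving out Tubb2b, a choice made after the data were seen, gave 7, 6, and 1 DEGs with medians of 1.51, 1.38, and −0.029. Values near 0 changed sign in Tuba4a for EASCs against SASCs (0.0046 with upper quartile scaling) and, between EASCs and PASCs, in Tubb5 (−0.0014 with DESeq2, −0.069 with total counts, −0.015 to 0.023 with a replicate left out), Tubb6 (−0.038 with total counts, −0.0065 to 0.047), Tuba1b (−0.13 to 0.058), and Tuba1c (−0.18 to 0.084). Tubb2b in PASCs against SASCs ran from −0.47, without PASCs replicate 1, to 1.91. With counts not divided by length, the shares in SASCs, PASCs, and EASCs were 6.05%, 4.96%, and 2.33% for Tuba4a, 1.81%, 1.81%, and 1.36% for Tubb2a, 8.67%, 13.0%, and 10.7% for Tubb4b, 70.5%, 66.0%, and 65.9% for Tubb5, and 15.6%, 16.8%, and 17.0% for Tubb6, and those of Tubb3 in PASCs and EASCs were 2.41% and 4.98%. Except in the values named, the cause was not tested. The values of single tubulin genes under alternatives are counted by direction and by the adjusted p-value of 0.05 at any fold. Of these values, 500 kept both, 12 changed sign, 8 no longer passed, and 1 passed anew. Changes of DEG calls, which also need the fold, are not in these counts and are those named above.

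Deviations from the group means had correlations from −0.025 to 0.059 between samples of the same replicate number. A shared rat of small effect could also give values near 0, so they cannot tell if the numbers pair the samples. A fit with the replicate number as a block gave 8, 6, and 2 DEGs with medians of 1.59, 1.33, and −0.01.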
